A study of Mus musculus with 6 samples.

Results

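The *Hox* genes encode homeodomain transcription factors and lie in 4 clusters, *Hoxa* to *Hoxd*. The protein-coding genes of these clusters were chosen by symbol (*Hox*, a cluster letter and a paralog number) after the gene identifiers of the count tables were given their GENCODE symbols on GRCm38. All 39 were found among the 47069 genes of the tables, with 11 genes in *Hoxa*, 10 in *Hoxb*, 9 in *Hoxc* and 9 in *Hoxd*. Of the 39 genes, 28 had at least 1 count in every mouse and 11 in some mice. After the filter on low counts, 24 of them remained among the 17667 genes that were tested.

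RNA sequencing was performed on inguinal subcutaneous white adipose tissue (SC-WAT), the fat pad of the groin, from 3 *Egr1*+/+ and 3 *Egr1*-/- mice. All 6 mice were females of the C57BL/6 strain by their labels (C57BL/6J in the study's methods), 2 weeks old, and had received no treatment that the labels give. EGR1 is a zinc finger transcription factor. The mutant allele is present in all tissues and carries a *LacZ* insert near its start and a shifted reading frame before the zinc fingers. By the study's methods, the mice came from 4 litters and 1 mouse of each genotype shared a litter, but the labels do not say which. The comparison asks how the *Hox* genes of this depot stood when EGR1 was missing. *Egr1* itself, the check of the labels, gave 353, 241 and 711 counts in *Egr1*+/+ SC-WAT and 103, 84 and 57 counts in *Egr1*-/- SC-WAT. The fitted change was -2.19 on the log2 scale (standard error, SE, 0.299, adjusted p = 0.0878, edgeR quasi-likelihood test with Benjamini-Hochberg adjustment), and every library stood on the side of its label. Libraries held 29661984 to 42357981 counts, of which 49.97% to 66.26% fell on mitochondrial genes, and 2118 to 3593 counts of each library fell on the 39 *Hox* genes.

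Within a *Hox* cluster, the genes stand in the order in which they act along the body axis. Genes with low paralog numbers pattern the hindbrain and neck, genes in the middle pattern the trunk, and genes with high numbers pattern the tail, genitalia and distal limb. Genes that carry the same paralog number in different clusters arose by duplication and have similar proteins. Adult fat depots keep a depot-specific set of *Hox* transcripts, which is read as a memory of where in the embryo their progenitors lay, and Polycomb and Trithorax proteins maintain these on and off states in other tissues.

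The homeobox, the part of the gene that codes for the DNA-binding homeodomain, is shown for the gene with the highest level in this tissue, *Hoxc8*, and for *Hoxb7* and *Hoxb2*, which were lower in *Egr1*-/- mice at an unadjusted p under 0.05. The sequences are GENCODE transcript sequences on GRCm38, each of 180 bases and each in the second of 2 exons. They come from *Hoxc8* (chr15:102992571-102992750, plus strand), *Hoxb7* (chr11:96289385-96289564, plus strand) and *Hoxb2* (chr11:96352985-96353164, plus strand). Capitals mark the 15 bases that code for the most conserved stretch of the recognition helix, the helix that lies in the major groove of DNA.
Hoxc8: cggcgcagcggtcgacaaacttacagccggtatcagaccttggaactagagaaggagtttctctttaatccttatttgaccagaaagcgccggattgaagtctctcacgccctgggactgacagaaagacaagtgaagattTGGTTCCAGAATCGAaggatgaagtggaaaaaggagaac
Hoxb7: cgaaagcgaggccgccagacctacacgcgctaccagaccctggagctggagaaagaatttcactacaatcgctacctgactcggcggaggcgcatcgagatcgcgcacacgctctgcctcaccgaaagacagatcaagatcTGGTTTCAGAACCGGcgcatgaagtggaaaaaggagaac
Hoxb2: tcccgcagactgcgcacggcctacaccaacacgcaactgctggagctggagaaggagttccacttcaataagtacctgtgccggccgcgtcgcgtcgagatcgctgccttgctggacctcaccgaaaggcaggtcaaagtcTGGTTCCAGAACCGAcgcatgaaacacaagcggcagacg
A homeobox was found in 39 of the 39 genes, and in all of them it lay in 1 exon. Across the 42 pairs of genes with the same paralog number the median identity of the homeobox was 80.56%, with a range of 67.22% to 93.89%. Across the 699 pairs with different numbers it was 60.56%. *Hoxb7* matched *Hoxa7* at 153 of the 180 bases, whereas *Hoxb2* matched *Hoxa2* at 134. The longest run of identical bases between any 2 homeoboxes was 52 bases (*Hoxa6* and *Hoxb4*), and the labels give single-end reads of 50 bases, whereas the study's methods give paired-end reads. Over whole transcripts, 8 of the 39 genes shared a run of 50 bases with another *Hox* gene, a count that holds for single reads of that length.

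The *Hox* profile of inguinal SC-WAT was that of the middle of the clusters. Levels are given as CPM, counts relative to the TMM-scaled library size, divided by the length of the gene's exons in kb, so that genes of different length can be compared. Paralogs 4 to 8 held 72.4% ± 1.70 (SD, n = 3) of the summed *Hox* level across *Egr1*+/+ mice and 73.1% ± 0.755 (SD, n = 3) in *Egr1*-/- mice. Paralogs 1 to 3 held 5.22% ± 0.517 and 5.35% ± 0.199 (SD, n = 3 in each genotype). Paralogs 9 to 13 held 22.4% ± 1.18 and 21.6% ± 0.954 (SD, n = 3 in each genotype), nearly all of it from paralogs 9 and 10. None of the 9 genes of paralogs 11 to 13 passed the filter, and the highest count of any of them in a mouse was 12. This is the part of the clusters that patterns the tail, genitalia and distal limb.

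**Figure D1:**
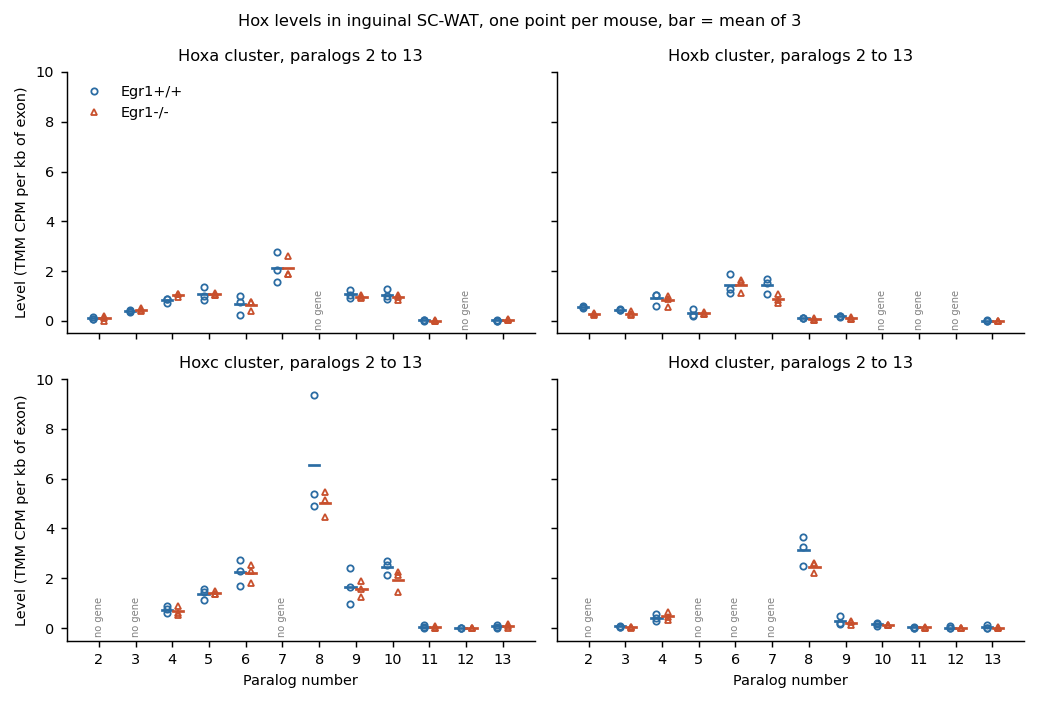
Level of the *Hox* genes of paralogs 2 to 13 (CPM per kb of exon, linear axis) in the 4 clusters, with 1 point for each mouse, circles for *Egr1*+/+, triangles for *Egr1*-/- and a bar at the mean of 3 mice. *Hoxc8* stands above all other genes in both genotypes, and the genes of paralogs 11 to 13 lie near 0.

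*Hoxc8*, which patterns the thoracic skeleton and is known to restrain the thermogenic program of fat, had the highest level. It reached 6.55 ± 2.46 CPM per kb (SD, n = 3) in *Egr1*+/+ mice and exceeded the second gene, *Hoxd8*, in 6 of 6 mice. The 2 genes did not overlap among the *Egr1*+/+ mice (lowest *Hoxc8* 4.89, highest *Hoxd8* 3.68 CPM per kb). *Hoxc8* alone made up 25.09%, 17.6% and 17.2% of the summed *Hox* level in the 3 *Egr1*+/+ mice against 17.4%, 17.4% and 18.6% in the 3 *Egr1*-/- mice. *Egr1*+/+ mouse 1 stood apart with the largest of these shares.

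Behind *Hoxc8*, the *Egr1*+/+ means followed in the order *Hoxd8* (3.13 CPM per kb), *Hoxc10* (2.46), *Hoxc6* (2.24), *Hoxa7* (2.12), *Hoxc9* (1.67), *Hoxb7* (1.44), *Hoxb6* (1.43) and *Hoxc5* (1.39). *Hoxa9*, *Hoxa5* and *Hoxa10* lay between 1.05 and 1.07 CPM per kb, and *Hoxb4* followed at 0.907. Along the whole order of 39 genes, only 2 neighbouring pairs did not overlap among the *Egr1*+/+ mice, *Hoxc8* over *Hoxd8* and *Hoxb2* over *Hoxb3*. The order of the other neighbours is therefore not resolved beyond the spread between mice. *Hoxb2* exceeded *Hoxb3* in 5 of 6 mice, and that order depends on the exon lengths used. In each cluster the highest genes were *Hoxa7*, *Hoxb7* with *Hoxb6*, *Hoxc8* and *Hoxd8*, all of paralogs 6 to 8.

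The *Hoxc* cluster contributed most, with 46.7% ± 5.22 (SD, n = 3) of the summed level across *Egr1*+/+ mice and 45.8% ± 2.64 (SD, n = 3) in *Egr1*-/- mice. *Hoxd* held 13.4% ± 4.49 and 12.0% ± 1.72 (SD, n = 3 in each genotype), mostly from *Hoxd8*. In both clusters the genotypes overlapped.

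The *Hoxa* share was 21.7%, 24.3% and 23.7% in *Egr1*+/+ mice against 27.2%, 28.1% and 26.67% in *Egr1*-/- mice. Every *Egr1*-/- mouse thus lay above every *Egr1*+/+ mouse. The *Hoxb* share went the opposite way, with 17.1%, 15.8% and 17.3% in *Egr1*+/+ mice against 15.5%, 14.8% and 14.3% in *Egr1*-/- mice, and again the genotypes did not overlap. A share is taken within a mouse, so the scaling between libraries does not enter it, but a lower share of one cluster raises those of the others. No test was made on these sums over chosen genes. On the CPM scale, without division by length, the shares of both clusters also did not overlap. The summed levels of the clusters did overlap, on both scales. *Hoxa* summed to 8.09, 6.74 and 7.42 CPM per kb in *Egr1*+/+ mice against 8.58, 7.18 and 7.36 in *Egr1*-/- mice, and *Hoxb* to 6.39, 4.37 and 5.43 against 4.90, 3.79 and 3.95.

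**Figure D2:**
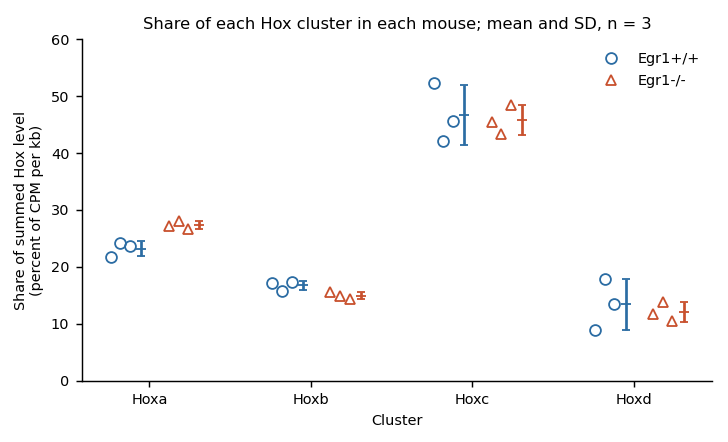
Share of each *Hox* cluster in the summed *Hox* level of each mouse (percent of CPM per kb), with circles for *Egr1*+/+, triangles for *Egr1*-/- and the mean with its SD (n = 3) beside the points. The *Hoxa* share runs from 21.7% to 24.3% in *Egr1*+/+ and from 26.67% to 28.1% in *Egr1*-/- mice, while *Hoxc* and *Hoxd* overlap.

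By paralog number, the share of paralog 8 was 32.0%, 31.3% and 27.9% in *Egr1*+/+ mice against 26.0%, 27.6% and 26.8% in *Egr1*-/- mice, and the genotypes did not overlap. The share of paralog 2 was also lower without overlap, at 2.07% ± 0.305 against 1.41% ± 0.316 (SD, n = 3 in each genotype). The shares of paralogs 5 and 6 were higher without overlap, while their summed levels overlapped. The share of paralog 6 was 13.5% ± 0.505 in *Egr1*+/+ and 15.2% ± 0.111 in *Egr1*-/- mice (SD, n = 3 in each genotype), and that of paralog 5 was 8.52% ± 0.672 and 9.90% ± 0.549 (SD, n = 3 in each genotype). In summed level, paralog 5 had 2.76 ± 0.628 against 2.78 ± 0.157 CPM per kb and paralog 6 had 4.33 ± 0.512 against 4.29 ± 0.487 CPM per kb (SD, n = 3 in each genotype), whereas for paralogs 2 and 8 the summed levels, like the shares, were lower in *Egr1*-/- SC-WAT without overlap. The summed level of all 39 genes overlapped between genotypes, at 37.4, 27.8 and 31.4 CPM per kb across *Egr1*+/+ mice and 31.5, 25.6 and 27.6 CPM per kb in *Egr1*-/- mice.

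No *Hox* gene passed the adjusted threshold of 0.05 between genotypes. By the quasi-likelihood test of edgeR, adjusted over all genes by Benjamini-Hochberg, 0 of 24 were called, where 0.017% of all genes tested were called (3 genes). DESeq2 called 0 of the 24, where it called 2.89% of the genes to which it gave an adjusted p. It gave none to 9 of the 24, among them *Hoxa4*, *Hoxb2* and *Hoxb3*, so it could not call these. limma-voom also called 0. At an unadjusted p under 0.05, 3 of the 24 were found with edgeR, or 12.5%, beside 10.7% of all genes tested, and DESeq2 and limma-voom each found 3. *Hoxb2* and *Hoxb7* were lower in *Egr1*-/- mice at this threshold, where 5.6% of all genes were lower and 5.06% higher. The share of *Hox* genes at this threshold was thus close to that of all genes.

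In 5 of the 24 (20.8%), the CPM of the genotypes did not overlap, beside 16.3% of all genes tested. With 24 genes, these shares were close. *Hoxa4* was higher in every *Egr1*-/- mouse, where 8.15% of all genes tested were, and *Hoxb2*, *Hoxb3* and *Hoxb7* were lower in every *Egr1*-/- mouse, where 8.1% were. All 3 of the lower genes lie in *Hoxb*, and exons of *Hoxb2* and *Hoxb3* lie in part opposite the same antisense transcript, *Hoxb3os*. When counts were divided by all counts of the library instead, *Hoxa4* overlapped and *Hoxb9* was lower without overlap. When they were divided by the counts outside mitochondrial genes, *Hoxb7* overlapped.

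**Figure D3:**
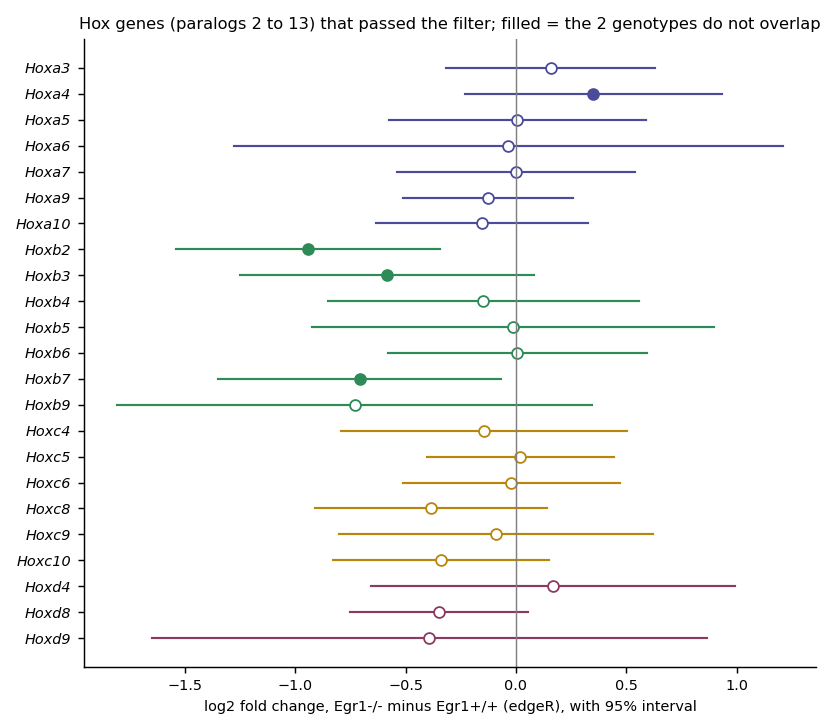
log2 fold change (*Egr1*-/- minus *Egr1*+/+) of the *Hox* genes of paralogs 2 to 13 that passed the filter, with its 95% interval from edgeR, colored by cluster and filled where the CPM of the genotypes did not overlap. The intervals of *Hoxb2* and *Hoxb7* leave out 0, and 6 of the 7 *Hoxb* genes lie below 0. Among these is *Hoxb9*, which passed the filter through its *Egr1*+/+ counts.

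*Hoxb2*, which patterns the hindbrain and the facial nerve, had 1.78, 2.03 and 1.99 CPM in *Egr1*+/+ mice against 1.17, 0.872 and 0.970 CPM in *Egr1*-/- mice. These came from 61, 61 and 86 counts and from 39, 27 and 30 counts. Each *Egr1*-/- mouse was clearly below each *Egr1*+/+ mouse. The log2 fold change was -0.94 (SE 0.265, 95% interval -1.54 to -0.34, edgeR unadjusted p = 0.00613, adjusted p = 0.258). That adjusted p was the lowest of any *Hox* gene, and over the other settings of the fit that gave one it ran from 0.193 to 0.720 for *Hoxb2*, while the unadjusted p stayed under 0.05 in all 15. An exact permutation test over mice gave a two-sided p = 0.1, the smallest that 3 mice against 3 allow, and the same value holds for *Hoxa4*, *Hoxb3* and *Hoxb7*. Any gene whose genotypes do not overlap gives this value, so it adds nothing to the lack of overlap.

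*Hoxb7*, a trunk gene of the ribs that is also active in blood and epithelial cells, had 2.59, 1.70 and 2.37 CPM in *Egr1*+/+ mice against 1.68, 1.10 and 1.29 CPM in *Egr1*-/- mice. *Egr1*+/+ mouse 2 and *Egr1*-/- mouse 1 almost met, at 1.70 and 1.68 CPM. The log2 fold change was -0.71 (SE 0.284, 95% interval -1.35 to -0.07, edgeR unadjusted p = 0.0339, adjusted p = 0.419). Without *Egr1*+/+ mouse 1 or 3, or without *Egr1*-/- mouse 2 or 3, its unadjusted edgeR p was between 0.0795 and 0.101.

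*Hoxb3*, which acts in the hindbrain and neck next to *Hoxb2*, had 1.95, 1.80 and 1.93 CPM in *Egr1*+/+ mice against 1.71, 0.936 and 1.13 CPM in *Egr1*-/- mice. *Egr1*-/- mouse 1 lay just under the *Egr1*+/+ mice. This gave a log2 fold change of -0.58 (SE 0.295, edgeR unadjusted p = 0.0792, adjusted p = 0.534), with a 95% interval of -1.25 to 0.08.

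*Hoxa4*, a gene of the neck and upper trunk, had 1.397, 1.398 and 1.14 CPM in *Egr1*+/+ mice against 1.74, 1.74 and 1.52 CPM in *Egr1*-/- mice. The gap between genotypes was small, and the log2 fold change was 0.35 (SE 0.258, 95% interval -0.23 to 0.93, edgeR unadjusted p = 0.207, adjusted p = 0.698).

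**Figure D4:**
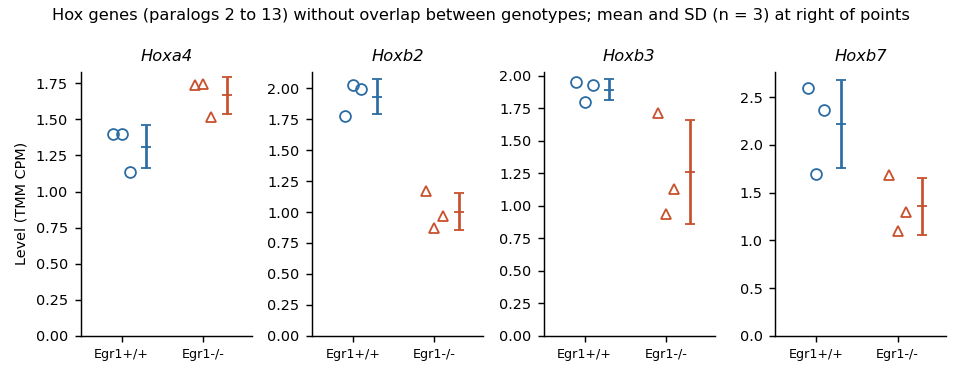
CPM of *Hoxa4*, *Hoxb2*, *Hoxb3* and *Hoxb7*, whose genotypes did not overlap, with 1 point for each mouse and the mean with its SD (n = 3) to the right, on linear axes that start at 0 and differ between genes. The points of *Hoxb7* and *Hoxb3* nearly meet between genotypes.

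In the 3 genes with the highest levels per kb, *Hoxc8*, *Hoxd8* and *Hoxc10*, the genotypes overlapped. *Hoxc8* had 26.54, 13.8 and 15.3 CPM in *Egr1*+/+ mice against 15.5, 12.6 and 14.5 CPM in *Egr1*-/- mice. Apart from the high value of *Egr1*+/+ mouse 1, all mice lay close together. The log2 fold change was -0.38 (SE 0.232, edgeR adjusted p = 0.612), and it was -0.05 without that mouse.

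*Hoxd8*, which acts in the trunk with *Hoxc8*, had 6.81, 10.1 and 8.91 CPM in *Egr1*+/+ mice against 7.14, 7.04 and 6.08 CPM in *Egr1*-/- mice. Only *Egr1*+/+ mouse 1 reached down into the range of the *Egr1*-/- mice. The fitted log2 fold change was -0.35 (SE 0.179, 95% interval -0.75 to 0.06, edgeR adjusted p = 0.542).

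*Hoxc10*, a gene of the lumbar region and hindlimb that is known to restrain browning of subcutaneous fat, had 5.18, 4.06 and 4.85 CPM in *Egr1*+/+ mice against 4.32, 2.78 and 4.04 CPM in *Egr1*-/- mice. The genotypes overlapped through *Egr1*+/+ mouse 2 and *Egr1*-/- mouse 1. This gave a log2 fold change of -0.34 (SE 0.216, 95% interval -0.83 to 0.15, edgeR adjusted p = 0.637).

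*Hoxa7*, *Hoxa5*, *Hoxb6* and *Hoxc6*, all genes of the trunk, had log2 fold changes of 0.0004, 0.0064, 0.0068 and -0.02. The widest of their 95% intervals ran from -0.58 to 0.60 (*Hoxb6*) and the narrowest from -0.51 to 0.47 (*Hoxc6*). The log2 fold change was -0.13 for *Hoxa9*, -0.15 for *Hoxb4*, 0.17 for *Hoxd4* and -0.39 for *Hoxd9*, each with an interval across 0. More than 1 in 2 of the exon bases of *Hoxd4* (52.3%) and *Hoxd3* (62.3%) lie in exons of another gene on the same strand, so their counts are uncertain.

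Over the 24 genes, 8 log2 fold changes were positive and 16 negative, and the median was -0.11, beside 0.0011 over all genes tested. Of all 17667 genes tested, 8858 were positive and 8809 negative. The median was 0.0034 for the 8 *Hoxa* genes, -0.58 for the 7 *Hoxb* genes, -0.12 for the 6 *Hoxc* genes and -0.35 for the 3 *Hoxd* genes. With each mouse left out, the *Hoxb* median ran from -0.87 to -0.41 and the median of the 24 from -0.20 to 0.0056. By position, the median was -0.21 for the 4 tested genes of paralogs 1 to 3 and -0.02 for the 14 of paralogs 4 to 8. It was -0.25 for the 6 of paralogs 9 to 13. All 6 were negative, *Hoxb9* among them, and 0 had an unadjusted p under 0.05. The 24 genes passed the filter in 1 fit over both genotypes, but a gene could pass through the 3 mice of 1 genotype alone. *Hoxb9* did so, with 19, 14 and 17 counts in *Egr1*+/+ mice against 14, 7 and 6 counts in *Egr1*-/- mice. Counts of the 24 genes by sign, by p or by lack of overlap are thus in part set by the filter. Neighbours in a cluster share regulatory regions, so the 24 genes are not independent points.

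Single mice set part of these values. *Egr1*+/+ mouse 1 had the highest CPM of all 6 mice in 13 of the 24 genes. *Egr1*+/+ mouse 2 had the lowest in 11 of the 24, and *Egr1*-/- mouse 2 in 8. *Egr1*+/+ mouse 2 also had the highest summed level of 10 skeletal muscle markers (3301 CPM), followed by *Egr1*-/- mouse 3 (2613) and *Egr1*+/+ mouse 1 (1049), whereas the other mice had 97.2 to 344 CPM. The part of muscle RNA in the *Hox* levels was not tested. Without *Egr1*+/+ mouse 2, the log2 fold changes of *Hoxb2* and *Hoxb7* were -0.91 and -0.86, and without *Egr1*-/- mouse 3 they were -0.92 and -0.67.

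The 15 *Hox* genes under the filter had no more than 13 counts in any mouse. *Hoxd1* had 0, 0 and 0 counts in *Egr1*+/+ mice against 3, 2 and 2 counts in *Egr1*-/- mice, at or under the floor of 3 counts (0.0696 to 0.0999 CPM), so no fold is given. *Hoxb8* had 9, 9 and 13 counts in *Egr1*+/+ mice against 9, 4 and 4 counts in *Egr1*-/- mice. The genes of paralogs 11 to 13, such as *Hoxa13*, *Hoxb13*, *Hoxc13* and *Hoxd13*, had 0 to 12 counts. At this depth their absence from the tissue cannot be told apart from a very low level.

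Besides the 39 genes, 46 other annotated genes lie within the cluster spans, of which 6 were tested. *Hoxb3os*, an antisense transcript opposite 52.9% of the exon bases of *Hoxb3* and 27.3% of those of *Hoxb2*, had 96, 79 and 93 counts in *Egr1*+/+ mice against 65, 31 and 65 counts in *Egr1*-/- mice. It was lower in every *Egr1*-/- mouse (2.53 ± 0.331 against 1.68 ± 0.597 CPM, SD, n = 3 in each genotype), with a fitted log2 fold change of -0.58 (SE 0.308, edgeR unadjusted p = 0.0913). The libraries mark strand, but whether counting used it is not given in the sources used here. If it did not, counts of *Hoxb2*, *Hoxb3* and *Hoxb3os* in the shared stretch cannot be told apart.

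The other 5 tested genes, *Hotairm1*, *Hoxaas2*, *5730596B20Rik*, *Gm53* and *Hoxd3os1*, overlapped between genotypes, with log2 fold changes from -0.62 (*Hoxd3os1*) to 0.41 (*Hoxaas2*). *Hotair*, a long noncoding RNA of *Hoxc*, had 4, 3 and 9 counts in *Egr1*+/+ mice against 2, 3 and 3 counts in *Egr1*-/- mice. The 7 annotated miRNA genes of the clusters, among them *Mir10a*, *Mir10b* and the *Mir196* genes, had 0 to 3 counts, which say nothing of the mature miRNAs in libraries not made for small RNA.

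The recognition sequence of EGR1, searched as GCGNGGGCG on both strands, was looked for in the 250 bases before the annotated start of each gene in the RefSeq promoter table (GRCm38.p6), which held 22 of the 39 *Hox* genes. It was present in 2 of the 22 (9.09%) and in 1440 of all 27025 promoters (5.33%). The *Hox* windows were richer in G and C, with a median of 58.6% against 52.4%. Both windows are shown with the match in capitals, since they are where the deleted factor's motif occurs, *Hoxa13* at chr6:52260987-52261015 (minus strand) and *Hoxb8* at chr11:96281673-96281701 (plus strand).
Hoxa13: gcagaggaccGCGCGGGCGgcggcgggga
Hoxb8: cagtcgggcgGCGGGGGCGatcgaagctg
Neither gene passed the filter on low counts. *Hoxa4*, *Hoxb2*, *Hoxb3* and *Hoxb7* were not among the 22 and were not searched here. A match of letters is not a binding site, and other regulatory regions were not searched.

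HOX proteins bind DNA together with TALE-class homeodomain cofactors of the PBX, MEIS and PKNOX families. Of 9 cofactor genes, 8 were tested, with 0.0043 as their median log2 fold change, and 0 passed the adjusted threshold in edgeR. *Meis3* alone was at an unadjusted p under 0.05, or 12.5% of the 8, beside 10.7% of all genes tested. *Meis3* was also the only gene of the 8 whose genotypes did not overlap, where 16.3% of all genes tested did not. It had 2.88, 2.50 and 2.71 CPM in *Egr1*+/+ mice against 1.86, 1.58 and 1.58 CPM in *Egr1*-/- mice, without overlap. On the log2 scale the change was -0.69 (SE 0.219, edgeR adjusted p = 0.310).

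A list of 31 genes held Polycomb and Trithorax genes, which keep *Hox* clusters silent or active. It also held the *Cdx* genes and *Ctcf*, which act on the clusters, and *Utf1*. Of the 31, 27 were tested, 17 with a positive and 10 with a negative log2 fold change, and the median was 0.05. None passed the adjusted threshold in edgeR, DESeq2 or limma-voom. *Kmt2b*, a Trithorax-group methyltransferase of histone H3, had 26.3, 24.3 and 24.8 CPM in *Egr1*+/+ mice against 27.9, 34.8 and 29.0 CPM in *Egr1*-/- mice. It was the only member with an unadjusted edgeR p under 0.05 (log2 fold change 0.28, standard error 0.120, edgeR adjusted p = 0.448). This was 3.70% of the 27 tested, below the 10.7% of all genes tested. *Pcgf2*, a Polycomb subunit, was also higher without overlap, with a log2 fold change of 0.22 (SE 0.202). Genes without overlap were thus 2 of the 27 (7.41%), beside 16.3% of all genes tested. *Ezh2*, the Polycomb methyltransferase, overlapped between genotypes at -0.13 (SE 0.130). *Utf1* and *Cdx1* had 0 counts in all 6 mice, and *Cdx2* and *Cdx4* had 0 to 6.

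Other genes that mark the position of a fat depot were lower in sum, but single members differed. The 28 genes of this list, homeobox, T-box and other developmental genes such as *Tbx15*, *Shox2* and *Prrx1*, summed to 192, 164 and 187 CPM across *Egr1*+/+ mice and to 151, 117 and 134 CPM in *Egr1*-/- mice, without overlap. Of the 19 that were tested, 14 had a negative log2 fold change, and the median was -0.22. The other 5, *En1*, *Tbx5*, *Irx1*, *Irx3* and *Lhx8*, had log2 fold changes of 0.13, 0.55, 0.05, 0.17 and 0.02. An unadjusted edgeR p under 0.05 was found for 3 of the 19 (15.8%), beside 10.7% of all genes tested. In 4 of the 19 (21.1%) the genotypes did not overlap, beside 16.3% of all genes tested. None passed the adjusted threshold in edgeR or limma-voom, whereas 3 did in DESeq2, which called 2.89% of all genes to which it gave an adjusted p. With 19 genes, these counts are given as a description. *Prrx1*, a homeobox gene of limb and body wall mesenchyme, contributed most to the sum.

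*Prrx1* had 65.2, 58.7 and 74.3 CPM in *Egr1*+/+ mice against 52.2, 39.4 and 43.2 CPM in *Egr1*-/- mice. The fitted log2 fold change was -0.56 (SE 0.142, adjusted p = 0.227 in edgeR and 0.0221 in DESeq2). *Sfrp2*, a secreted modulator of WNT signaling, had 25.21, 26.6 and 21.4 CPM in *Egr1*+/+ mice against 17.4, 8.59 and 10.9 CPM in *Egr1*-/- mice. Every *Egr1*-/- mouse was below every *Egr1*+/+ mouse in both genes. The log2 fold change of *Sfrp2* was -0.99 (SE 0.234, adjusted p = 0.208 in edgeR and 0.00292 in DESeq2). *Shox2*, a homeobox gene of proximal limb and subcutaneous fat, had a log2 fold change of -0.65 (SE 0.174, adjusted p = 0.242 in edgeR and 0.0492 in DESeq2) and did not overlap.

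*Tbx15*, a T-box gene that is high in subcutaneous depots, had 25.7, 21.2 and 23.1 CPM in *Egr1*+/+ mice against 18.6, 15.2 and 22.1 CPM in *Egr1*-/- mice. The genotypes overlapped, and its log2 fold change was -0.32 (SE 0.153, adjusted p = 0.497 in edgeR). *Twist1* was lower in every *Egr1*-/- mouse, with a log2 fold change of -0.32 (SE 0.150, adjusted p = 0.491 in edgeR). *Tcf21*, *Wt1*, *Gata4* and *Hand2*, which mark visceral mesenchyme, had 0 to 10 counts in each mouse, and *Zic1*, a marker of classical brown fat, had 2 to 14.

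*Prrx1*, *Shox2* and *Sfrp2* are genes of the stroma, and stromal markers were lower in the same mice. The 12 stromal progenitor markers, such as *Pdgfra*, *Cd34* and *Dcn*, summed to 4565, 5358 and 4892 CPM across *Egr1*+/+ mice and to 3748, 2710 and 3024 CPM in *Egr1*-/- mice, without overlap. All 12 had a negative log2 fold change, and 10 (83.3%) had an unadjusted edgeR p under 0.05, beside 10.7% of all genes tested. In edgeR 0 passed the adjusted threshold. In DESeq2 8 did, where 2.89% of all genes given an adjusted p were called. None of the 12 markers was at 0. The study had already reported *Dcn*, *Col1a1* and *Col14a1* of this list as downregulated in its RNA sequencing. In bulk tissue, fewer cells of a type and less RNA of a gene in each cell cannot be told apart, for the *Hox* genes as for these. The part of stromal RNA in the *Hox* values was not tested.

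The thermogenic markers stood higher. The study had already reported *Ucp1*, *Cidea*, *Dio2*, *Cox8b* and *Ppargc1a* as upregulated in its RNA sequencing, so this list is not independent of these data. The 8 genes of the list, among them *Ucp1* and *Dio2*, summed to 676, 529 and 522 CPM across *Egr1*+/+ mice. The sums were 1307, 929 and 1551 CPM in *Egr1*-/- mice. An unadjusted edgeR p under 0.05 was found for 7 of the 7 tested, beside 10.7% of all genes tested. In edgeR 0 passed the adjusted threshold. In DESeq2 7 did, where 2.89% of all genes given an adjusted p were called. The 10 adipocyte markers were present in all mice at 9489 to 12625 CPM in sum, lower without overlap in *Egr1*-/- mice, and their median log2 fold change was -0.17. Single markers were mixed, with 7 negative and 3 positive log2 fold changes. An unadjusted edgeR p under 0.05 was found for 4 of the 10 (40%), 3 lower and 1 higher, beside 10.7% of all genes tested. The adjusted threshold was passed by 0 in edgeR and by 1 in DESeq2, where 2.89% of all genes given an adjusted p were called. Without overlap, 2 of the 10 were lower and 1 (*Lipe*) was higher, where 8.1% and 8.15% of all genes tested were. The labelled tissue was thus fat by its adipocyte markers, with muscle RNA in amounts that varied between mice. Mammary epithelium (6.14 to 25.0 CPM in sum), lymphocytes (328 to 722), endothelium (382 to 571) and skin (8.37 to 39.6) overlapped between genotypes. The median log2 fold change was -0.74 for the muscle markers, -0.02 for the mammary markers, 0.44 for the lymphocyte markers, 0.0080 for the endothelial markers and -1.09 for the 5 tested skin markers.

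**Figure D5:**
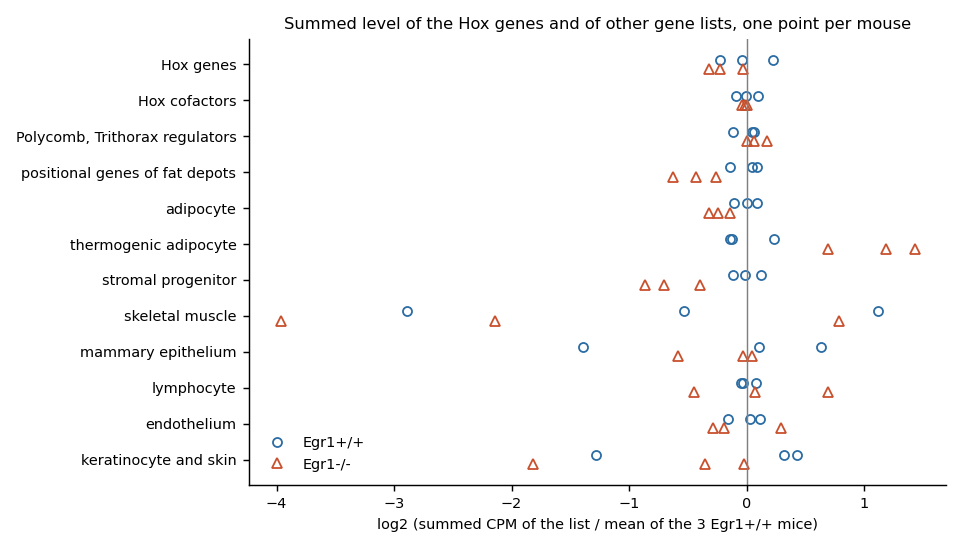
Summed CPM of the 39 *Hox* genes and of each other gene list in each mouse, as log2 of its ratio to the mean of the 3 *Egr1*+/+ mice, with circles for *Egr1*+/+ and triangles for *Egr1*-/-. The *Hox* sum overlaps between genotypes, whereas the positional, stromal, adipocyte and thermogenic sums do not, and the muscle sum spreads most between mice.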

How the data were processed

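Whole counts per gene were deposited by the authors, one table for each mouse, and are not normalized. Per the submitters' processing notes, reads were mapped with TopHat2 and Bowtie2 and counted with featureCounts on mm10 (GRCm38.p4). Libraries were depleted of ribosomal RNA and sequenced as strand-specific reads, of 50 bases and single-end per the labels but paired-end in the study's methods, and the strand setting of the counting is not given in the sources used here. The mice came from crosses between heterozygous animals. P-values treat these 6 mice as independent, although the study's methods name 1 *Egr1*+/+ and 1 *Egr1*-/- mouse as littermates.

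Identifiers without their version were matched to GENCODE M21 symbols (46574 of 47069). Genes that passed filterByExpr were fitted with edgeR 4.0.16 (TMM, quasi-likelihood test, Benjamini-Hochberg adjustment over all 17667 genes tested, threshold 0.05). CPM is relative to TMM-scaled library sizes. DESeq2 1.42.0, limma 3.58.1 (voom) and other normalizations and filters were alternatives. The edgeR step was tested on simulated data. All replicate pairs differed beyond sampling noise. The genes and lists were chosen with earlier results of these data known. Full values are given only for *Hox* genes with an unadjusted p under 0.05, without overlap between genotypes, or among the 3 highest of their cluster per kb. Some of these genes, and many list members that met the same criteria, are given by log2 fold change or within a sum only. Intervals and floors cover counting error or the fit only. Some genes counted among the totals are not reported by name here.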

Additional observations from a re-analysis of the deposited data

How the results depend on the processing

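In edgeR with the other settings, DESeq2, limma-voom and each mouse left out, 0 *Hox* genes passed the adjusted threshold in all 15 alternatives. At an unadjusted p under 0.05 the number was 5 in place of 3 with total-count normalization, which added *Hoxb3* and *Hoxc8* and moved the median of all genes to -0.15, and 5 without the filter on low counts, which added *Hoxc8* and *Hoxd1*. Leaving out 1 mouse at a time gave 2 to 4. *Hoxb2* stayed under that threshold in all 15, and the median of the *Hox* genes ran from -0.26 to 0.0056. The genes with a change near 0 turned sign: *Hoxa7* to -0.00068 with upper-quartile normalization, -0.0018 with RLE and DESeq2 and -0.18 with total counts, and *Hoxa5*, *Hoxb6* and *Hoxd4* to -0.15, -0.15 and -0.049 with total counts. The range over the fits without 1 mouse was -0.14 to 0.21 for *Hoxa5*, -0.17 to 0.22 for *Hoxa7*, -0.14 to 0.23 for *Hoxb6*, -0.36 to 0.062 for *Hoxb4*, -0.18 to 0.13 for *Hoxc6*, -0.14 to 0.44 for *Hoxd4* and -0.70 to 0.24 for *Hoxd9*. The cause was not tested. On the CPM scale, the *Egr1*+/+ and *Egr1*-/- shares were 26.1% and 30.1% for *Hoxa*, 15.0% and 13.1% for *Hoxb*, 8.19% and 8.05% for paralogs 1 to 3, 68.1% and 68.5% for paralogs 4 to 8 and 23.7% and 23.4% for paralogs 9 to 13. The check of overlap under other scalings was added after seeing the data.

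The labels give both genotypes the replicate numbers 1 to 3. The deviations of same-numbered mice had correlations of -0.0888, 0.106 and -0.126, and 2 of 6 mice correlated best with their own number, so the numbers were not taken to pair the mice. The pair of littermates could not be matched to numbers and was not modelled. With the replicate block, 0 *Hox* genes passed the adjusted threshold, 3 had an unadjusted p under 0.05, and the median was -0.07. Genes of a few counts, such as those of paralogs 11 to 13, are limited by depth.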
